A study of Mus musculus with 18 samples.

Results

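Rikenellaceae, Bacteroidaceae, Prevotellaceae and Marinifilaceae are the named Bacteroidota families other than Muribaculaceae in the stool of peanut-sensitized mice, and their 16S rRNA gene features are described here. The members are all features that the deposited taxonomy places in the phylum Bacteroidota and outside Muribaculaceae, including 1 feature of the order Bacteroidales with no family name. They number 40 of the 419 features in the table, where a feature is 1 distinct sequence of the gene and a count is 1 read assigned to it. The 18 mice were N2-generation offspring of C57BL/6 and C3H/HeJ strains, all sensitized to peanut for 6 weeks before stool was taken. The labels call 6 of them susceptible and 12 resistant to oral anaphylaxis, a rapid systemic allergic response that follows eating the allergen. The labels used give no age, sex, cage or litter. Mice are named by group and by number in accession order.

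The Bacteroidota common in the gut are Gram-negative anaerobes that break down plant and host glycans with enzymes encoded in polysaccharide utilization loci. They release acetate, propionate and succinate. Rikenellaceae include Alistipes, a bile-tolerant genus able to ferment amino acids, and the RC9 gut group, an uncultured lineage known from sequences of animal guts. Bacteroidaceae hold Bacteroides, a genus of versatile glycan degraders, Prevotellaceae are known for degrading plant fibre, and Odoribacter, placed here in Marinifilaceae, is known for producing butyrate among other acids.

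Totals ran from 673 to 3905 counts per mouse, and 2 libraries, resistant mice 3 and 5, held fewer than 1500. By a limit of 3 counts over the total, a count of 0 allows a share of up to 0.446% in the shallowest library and 0.0768% in the deepest. The 95% exact interval of a count of 0 reached higher, to 0.547% and 0.0944%. All intervals for single mice are 95% exact Clopper-Pearson intervals, and both intervals and limits cover counting error only: reads from PCR were not tagged per molecule and are not independent. Shares are relative, so a lower share can mean fewer of these bacteria or more of others.

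The members together held 4081 counts, 9.43% of all counts, and Rikenellaceae supplied most of them. Their summed share of a mouse's counts was 8.38 ± 6.43% (SD, n = 6) for the susceptible group and 10.3 ± 7.27% (SD, n = 12) for the resistant group. Susceptible mice ran from 0.963% to 17.2% with a median of 7.34%, and resistant mice from 1.09% to 28.5% with a median of 10.1%, so the groups overlapped over most of their range. Of the member counts, Rikenellaceae held 78.5%, Bacteroidaceae 18.9%, Marinifilaceae 1.57%, Prevotellaceae 1.005% and the feature without a family name 0.0490%. Of 12 Bacteroidota families listed for this comparison, these 4 were found. The other 8 (Tannerellaceae, Barnesiellaceae, Porphyromonadaceae, Dysgonomonadaceae, Paludibacteraceae, Odoribacteraceae, Flavobacteriaceae and Weeksellaceae) had no feature under that name in this table.

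**Figure D1:**
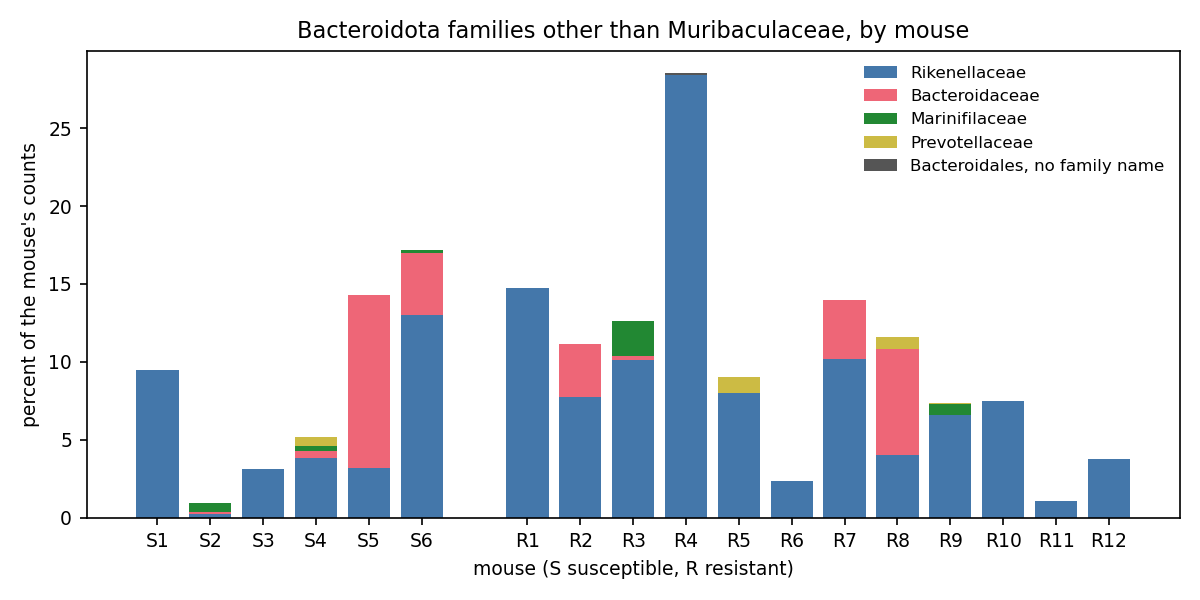
Percent of each mouse's counts (vertical axis) in the Bacteroidota families other than Muribaculaceae, stacked by family, for 6 susceptible (S) and 12 resistant (R) mice. Rikenellaceae fill most of each bar except in S2, S5 and R8, and the tallest bar, R4, reaches 28.5%.

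Most members were rare. Of the 40 features, 31 (77.5%) were found in 1 mouse only, and these 31 held 254 counts. Over all 419 features that share was 58.2%, and among the 163 Muribaculaceae features 54.0%. Members also had fewer counts each, with a median of 4 against 10 over all features, and the part of this in the difference in prevalence was not tested. Only 4 members (10%) were found in 4 or more mice, against 21.5% of all features. These 4, with 10 or more counts each, were the members that passed the filter for testing: F-65fad694, F-7427d73d and F-911e409f of the RC9 gut group, and F-e9fe4d95 of Bacteroides. The names join F- to the first characters of the deposited identifiers.

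Rikenellaceae were found in all 18 mice. Their share was 5.49 ± 4.76% (SD, n = 6) for the susceptible group, from 0.259% through a median of 3.52% to 13.01%. For the resistant group it was 8.71 ± 7.26% (SD, n = 12), from 1.09% through a median of 7.63% to 28.4%. The lowest value belonged to susceptible mouse 2, with 7 of 2701 counts (interval 0.104% to 0.533%), and the highest to resistant mouse 4. Among all families of a mouse, Rikenellaceae ranked 2 in 1 mouse, 3 in 7 mice, 4 in 7 mice, 5 in 2 mice and 9 in susceptible mouse 2.

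The group difference in Rikenellaceae did not pass the test on any of 3 measures. On the log2(percent + 0.01) scale susceptible mice were lower by 0.97, written as -0.97, and the 95% interval reached from -2.57 to 0.58 (exact permutation test, two-sided, p = 0.221, adjusted p = 0.634 over the 3 measures). Without susceptible mouse 2 the difference was -0.25. As a share of Bacteroidota counts alone, a measure that does not move with Firmicutes, Rikenellaceae averaged 17.1 ± 18.7% (SD, n = 6) and 26.5 ± 25.1% (SD, n = 12). That difference was -9.47 percentage points, with -34.1 and 14.9 as the 95% bounds (exact permutation test, two-sided, p = 0.423, adjusted p = 0.634). It was -4.96 without resistant mouse 1, -6.01 without resistant mouse 2 and -16.0 without susceptible mouse 1. The share ran from 2.82% to 49.9% of Bacteroidota in susceptible mice and from 5.15% to 76.2% in resistant mice. Rikenellaceae thus held more of the phylum than every other Bacteroidota family combined in resistant mice 1, 2 and 4, at 76.2%, 64.7% and 55.7%.

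Within Rikenellaceae, 3 features of the RC9 gut group held 3027 counts, 94.5% of the family and 6.996% of the whole table. In the median mouse they were 100% of the family's counts, and in the lowest mouse 75.2%. F-65fad694 was found in 17 mice, F-7427d73d in 13 and F-911e409f in 13. F-65fad694 made up 0% to 4.17% of counts (median 1.79%) in susceptible mice and 0.563% to 7.43% (median 2.72%) in resistant mice. F-7427d73d ran from 0% to 4.35% (median 0%) in susceptible and from 0% to 8.03% (median 2.38%) in resistant mice. F-911e409f ran from 0.259% to 3.71% (median 1.73%) and from 0% to 5.91% (median 1.84%).

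Where these features occurred in the same mouse, their counts were close to equal. In resistant mouse 1 they had 166, 174 and 148 counts (F-65fad694, F-7427d73d and F-911e409f in this order), in susceptible mouse 6 163, 170 and 145, and in susceptible mouse 1 71, 77 and 62. The ratio of F-65fad694 to F-7427d73d had a median of 0.95 over 13 mice and ran from 0.755 to 1.44. The ratio of F-65fad694 to F-911e409f had a median of 1.12 over 12 mice and ran from 0.846 to 1.36. In all 13 and all 12 of these mice the exact interval of the first feature's share of the pair held 50%. For F-7427d73d and F-911e409f the median ratio was 1.17 over 8 mice, and the interval held 50% in 7 of them, the exception being resistant mouse 4 with 121 and 89 counts. An interval that holds 50% does not show that counts were equal.

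**Figure D2:**
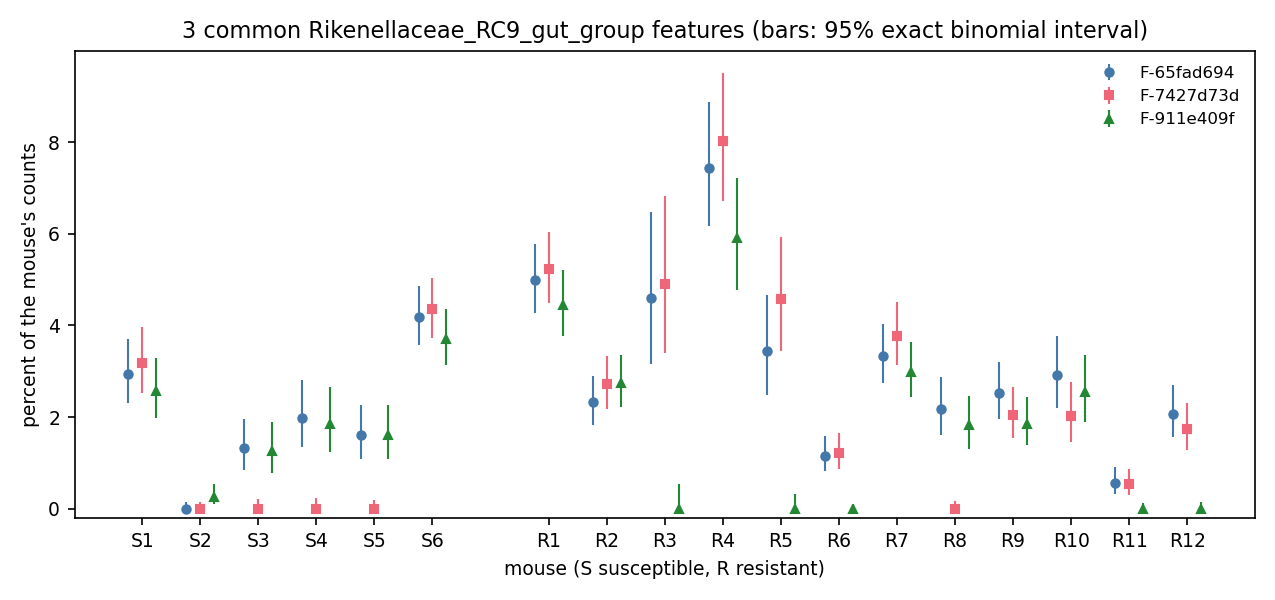
Percent of each mouse's counts (vertical axis) in the 3 common features of the RC9 gut group, with 95% exact binomial intervals, for 6 susceptible (S) and 12 resistant (R) mice. Found features lie close together within a mouse while the level differs between mice, from 0.563% in R11 to 7.43% in R4 for F-65fad694.

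These ratios were steadier between mice than those of most feature pairs in the table. Over the 237 pairs of features found together in 8 or more mice, the SD over mice of the log2 count ratio had a median of 1.26 and a 5th percentile of 0.37. It was 0.17 for F-65fad694 with F-911e409f, 0.24 for F-7427d73d with F-911e409f and 0.25 for F-65fad694 with F-7427d73d, which placed these pairs at ranks 2, 5 and 6 from the lowest. Such steadiness was not particular to the RC9 features, since other pairs within 1 genus name were about as steady. Muribaculaceae F-5b0cc92d with F-28dbab98 had 0.16 (rank 1), Lactobacillus F-40f7adfe with F-8bbb513d 0.20 (rank 3) and Lachnospiraceae_UCG-001 F-a98c4fb5 with F-f79da255 0.22 (rank 4). Not every such pair was steady: Lactobacillus F-70150fc6 with F-ac0f4799 had 2.39 at rank 233. Pairs with more counts have less counting error in their ratio, and the part of this in the ranks was not tested. This comparison was chosen after the values were seen and is a description. F-65fad694 with the Bacteroides feature F-e9fe4d95, found together in 5 mice, had an SD of 1.096 at rank 362 of the 847 pairs found together in 5 or more mice.

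**Figure D3:**
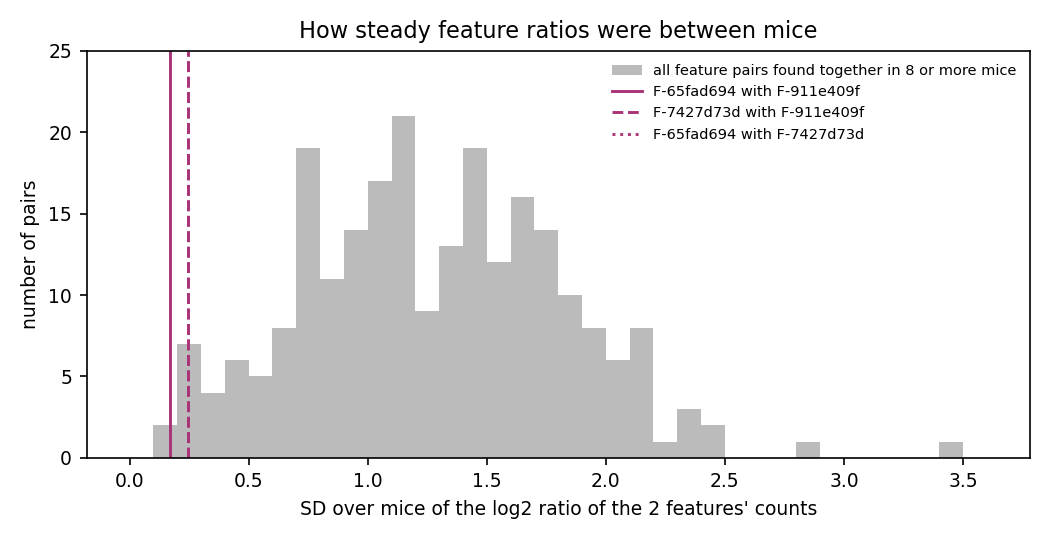
Histogram of the SD over mice of the log2 ratio of 2 features' counts (horizontal axis) for the 237 pairs found together in 8 or more mice, with the number of pairs on the vertical axis. Lines mark the 3 pairs among the common RC9 features, at 0.17, 0.24 and 0.25, at the left edge of the distribution.

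The 18 mice differed in which of the 3 features they carried. All 3 were found in 8 mice, F-65fad694 and F-7427d73d without F-911e409f in 5, F-65fad694 and F-911e409f without F-7427d73d in 4, and F-911e409f alone in 1, susceptible mouse 2. The feature that was missing lay below what the other counts of that mouse would allow at equal levels. In resistant mice 3, 5, 6, 11 and 12, F-911e409f had 0 counts while F-65fad694 had 31, 40, 38, 17 and 55. In susceptible mice 3, 4 and 5 and resistant mouse 8, F-7427d73d had 0 counts while F-65fad694 had 23, 31, 31 and 49. Susceptible mouse 2, with 7 counts of F-911e409f and 0 of the other 2, is too thin for such a statement.

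By group, 2 of 6 susceptible mice carried F-7427d73d, as did 11 of 12 resistant mice, and F-911e409f was found in 6 of 6 and 7 of 12. The combination without F-911e409f was found in 5 resistant and 0 susceptible mice, and that without F-7427d73d, F-65fad694 being present, in 3 susceptible mice and 1 resistant mouse. Presence of F-7427d73d had an unadjusted p of 0.0217 in Fisher's exact test (two-sided), with an adjusted p of 0.608 over the 84 features found in 4 to 14 mice, and so did not pass. Of these 84 features 0% passed the adjusted threshold and 3.57% were under 0.05 unadjusted, and 1 of the 3 members tested was among the latter. F-911e409f had an exact p of 0.114 and F-e9fe4d95 of 1 (Fisher's exact test, adjusted p = 1 for each). In edgeR's quasi-likelihood test of abundance F-7427d73d had a log2 fold change, susceptible over resistant, of -1.08 ± 1.5 (SE, adjusted p = 0.964). The same feature had -3.71 with an adjusted p of 0.374 by limma on centred log-ratios. Feature presence was tested after the values were seen, and the exact p for F-7427d73d was 0.0525 without any 1 of susceptible mice 2, 3, 4 or 5. It was 0.00986 without susceptible mouse 1 or 6 and 0.00630 without resistant mouse 8 (Fisher's exact test), and the lowest adjusted p with 1 mouse left out was 0.375.

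The number of features that shared the family was counted as an effective number (inverse Simpson index), which equals the number of features when all are equally abundant. In the 17 mice with 20 or more Rikenellaceae counts it was 2.72 ± 0.718 (SD, n = 5) for the susceptible group and 2.60 ± 0.652 (SD, n = 12) for the resistant group. The groups differed by 0.120, with -0.627 and 0.887 as the 95% bounds (exact permutation test, two-sided, p = 0.733, adjusted p = 0.733), and the value turned to -0.0780 without susceptible mouse 1 and to -0.0389 without susceptible mouse 6. Values fell into separate clusters, 8 mice from 1.96 to 2.24 and 9 mice from 2.72 to 3.95. Resistant mouse 4 had the highest value, since a further RC9 feature, F-b9826b5a, was found there alone with 106 counts beside 112, 121 and 89 of the common ones. The remaining RC9 feature, F-5a526b69, had 2 counts in resistant mouse 1.

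Outside the RC9 gut group, Rikenellaceae were represented by Alistipes and Rikenella at low counts. Alistipes comprised 6 features with 58 counts, 5 of them found in 1 mouse each. It had 12 counts (0.497%) in susceptible mouse 1, 10 (0.571%) in mouse 3 and 30 (0.768%) in mouse 6, and 4 (0.594%) in resistant mouse 3 and 2 (0.0630%) in resistant mouse 7. It thus occurred in 3 susceptible and 2 resistant mice, with 0 counts in the other 13, and the ranges of the groups overlapped. The most abundant feature, F-142e0d3f, had 10 counts in susceptible mouse 3 and 12 in susceptible mouse 6, and F-05ec96e5 had 18 in susceptible mouse 6. The genus had a log2 fold change of 2.73 ± 1.67 (SE, adjusted p = 0.384, edgeR) over the 26 genera tested. Without resistant mouse 3, the library of 673 counts that held 4 of the 6 resistant counts, it was 5.46 and passed (adjusted p = 0.0302, edgeR, 3.85% of 26 genera called). Without both libraries under 1500 counts it did not pass, at 4.40 (adjusted p = 0.117, edgeR), and over the 18 fits that each left out 1 mouse its range was 1.35 to 5.46. Rikenella, the type genus of the family, had 7 counts in susceptible mouse 1 and 4 in resistant mouse 9, each from a feature of its own (F-1a26842e and F-18c45162).

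Bacteroidaceae, all of them Bacteroides, were either abundant or near the limit of counting. In 5 mice they made up 11.1% (susceptible mouse 5), 6.81% (resistant mouse 8), 3.99% (susceptible mouse 6), 3.81% (resistant mouse 7) and 3.40% (resistant mouse 2). In 3 more mice they were found with 7 counts (0.448%, susceptible mouse 4), 3 counts (0.111%, susceptible mouse 2) and 2 counts (0.297%, resistant mouse 3), and in the other 10 mice with 0 counts. No mouse lay between 0.448% and 3.40%. The group means were 2.61 ± 4.44% (susceptible, SD, n = 6) and 1.19 ± 2.25% (resistant, SD, n = 12), and the groups overlapped.

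The 5 mice with abundant Bacteroides were exactly those with F-e9fe4d95, a feature with no species name that held 697 of the 770 counts (90.5%). It had 174 counts in susceptible mouse 5, 151 in susceptible mouse 6, and 110, 114 and 148 in resistant mice 2, 7 and 8. The lowest of these shares was 3.31% in resistant mouse 2 (interval 2.73% to 3.98%). Among the 13 mice without it, the limit of 3 counts over the total was at most 0.446%, in resistant mouse 3. The other 12 Bacteroides features had 1 to 31 counts each. F-e44942e5, with 2, 5 and 5 counts in susceptible mouse 6 and resistant mice 7 and 8, occurred only beside F-e9fe4d95. The same held for F-946d726a, with 5 counts in 3 mice, and both rest on few counts. The taxonomy gives the species Bacteroides_acidifaciens, a species first described from mouse caecum, to F-16e82be3 (31 counts in susceptible mouse 5) and F-17e7c1e3 (2 counts in resistant mouse 2). It gives Bacteroides_caecimuris, another mouse gut species, to 4 features, with 3 counts in susceptible mouse 2 and 3, 1 and 1 in susceptible mouse 5.

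For Bacteroidaceae the log2 fold change was 1.74 ± 1.57 (SE, adjusted p = 0.623, edgeR), and for the genus Bacteroides, which has the same counts, 1.80 ± 1.19 (SE, adjusted p = 0.430, edgeR). The family value was -0.88 and the genus value -0.24 without susceptible mouse 5, the mouse with the highest share. Of 6 susceptible mice 4 carried the family, as did 4 of 12 resistant mice (Fisher's exact test, p = 0.321). The adjusted p by Fisher's exact test was 0.964 over the 12 families found in 4 to 14 mice, of which 0% passed and 8.33% were under 0.05 unadjusted, none of them a member. F-e9fe4d95 alone had 1.02 ± 1.87 (SE, adjusted p = 0.964, edgeR), and -0.35 without susceptible mouse 5.

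Marinifilaceae consisted of 2 Odoribacter features that did not occur in the same mouse. F-0556486b had 16 counts in susceptible mouse 2 and 8 in susceptible mouse 6, and F-86031f4e had 5 in susceptible mouse 4, 15 in resistant mouse 3 and 20 in resistant mouse 9. As shares these were 0.592%, 0.205%, 0.320%, 2.23% and 0.743%, so the highest share rested on the shallowest library (interval 1.25% to 3.65%). In susceptible mouse 2, where Rikenellaceae were lowest at 7 counts, Odoribacter had 16 counts and was the most abundant of the member genera. Presence in 3 of 6 susceptible against 2 of 12 resistant mice did not pass (Fisher's exact test, p = 0.268, adjusted p = 0.964). The mean share was 0.186 ± 0.240% (SD, n = 6) and 0.248 ± 0.659% (SD, n = 12), and 0.0743% in resistant mice without the 2 libraries under 1500 counts. The same counts gave a log2 fold change of 1.54 ± 1.73 (SE, adjusted p = 0.662, edgeR) when summed as a family and of -0.89 ± 1.78 (SE, adjusted p = 0.982, edgeR) as the genus Odoribacter. The fits differ in the libraries' scaling factors, and with library totals alone the values were -0.33 and -0.34. Without the 2 libraries under 1500 counts the family had 3.40 ± 1.63 (SE, unadjusted p = 0.0410, adjusted p = 0.230, edgeR).

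Prevotellaceae were found in susceptible mouse 4 and resistant mice 5, 8 and 9, with 9, 12, 18 and 2 counts or 0.577%, 1.03%, 0.801% and 0.0743%. They comprised 11 features with 9 counts or fewer each, found in a single mouse each, and features this low can be missed elsewhere. Of these, 10 belonged to Prevotellaceae_UCG-001, an uncultured genus, with 9 counts in the most abundant (F-305c59ab in resistant mouse 8 and F-f577229e in resistant mouse 5), and 1 to Alloprevotella (F-f851b515, 2 counts in resistant mouse 8). The log2 fold change was -0.63 ± 1.76 (SE, adjusted p = 0.866, edgeR) for the family and -0.15 ± 1.65 (SE, adjusted p = 0.982, edgeR) for Prevotellaceae_UCG-001. The feature with no family name, F-b0edb011, had 2 counts in resistant mouse 4.

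**Figure D4:**
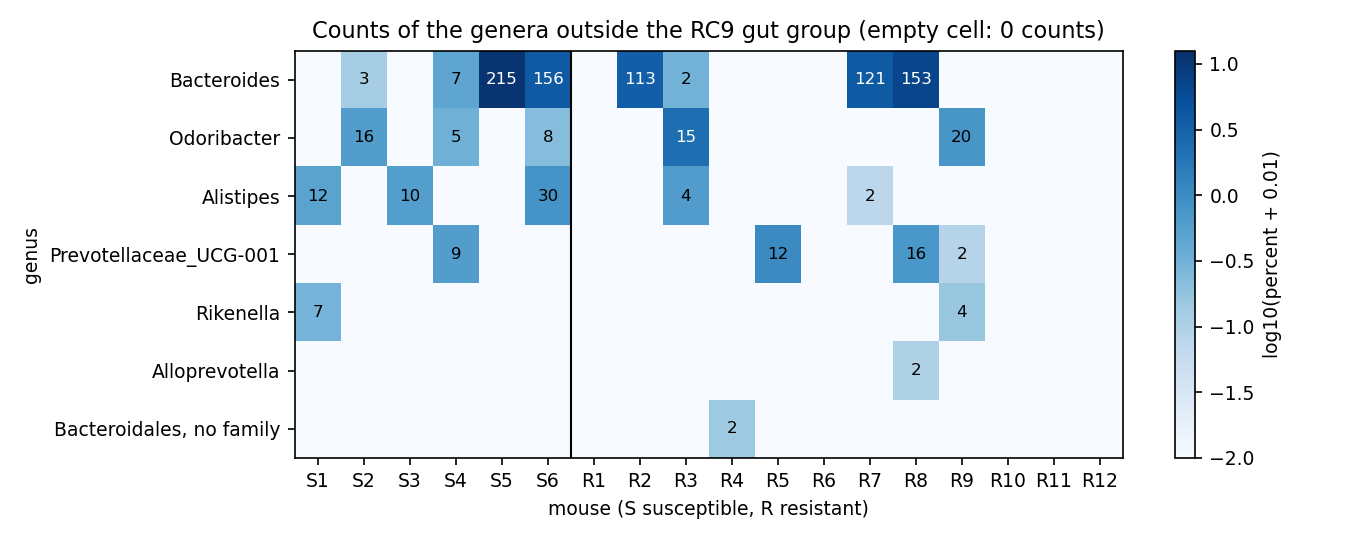
Counts (numbers in cells) of the genera outside the RC9 gut group, and of the feature with no family name, in each mouse, for 6 susceptible (S, left of the line) and 12 resistant (R) mice, coloured by log10(percent + 0.01). Resistant mice R1, R6, R10, R11 and R12 hold none of these, and Bacteroides fills the darkest cells, with 215 counts in S5.

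None of the families, genera or features described here passed edgeR's test between the groups when all 18 mice were fitted with the filter of 10 counts in total and presence in 4 mice. At the family level 0% of 16 families passed, and 4 of them were members, with a median log2 fold change of 0.55 against 1.43 over all families tested. At the genus level 0% of 26 passed, with a median of -0.04 over 5 members against 0.53 over all. At the feature level 0% of 83 passed, with a median of -0.20 over 4 members against -0.24 over all. At an unadjusted p under 0.05 edgeR had 3 families (18.8%), 2 genera (7.69%) and 1 feature (1.2%), none of them members. By DESeq2 the counts were 0, 0 and 1 at that level, and by limma 1, 2 and 4, of which 1 feature, F-7427d73d, was a member. Rikenellaceae had a log2 fold change of -0.43 ± 0.57 (SE, adjusted p = 0.662, edgeR), which was -1.21 without susceptible mouse 6 and -0.16 without resistant mouse 4, and the RC9 gut group of -0.04 ± 0.88 (SE, adjusted p = 0.982, edgeR). F-65fad694 had -0.48 ± 1.17 (SE, adjusted p = 0.964, edgeR), with -0.81 without susceptible mouse 6 and -0.045 without resistant mouse 1, and F-911e409f 0.09 ± 1.48 (SE, adjusted p = 0.975, edgeR), the latter turning negative in 8 of 18 fits that each left out 1 mouse. With no filter on low counts edgeR called 15.3% of 419 features, and 12 of the 40 members were among them. All 12 had 0 counts in every resistant mouse, and 10 of them were found in 1 mouse. With a filter of 2 mice it called 6.49% of 154 features, 2 of 8 members among them, F-0556486b of Odoribacter and F-142e0d3f of Alistipes. The scaling moved the median of all families tested, which was 1.43 after TMM, 0.18 by library totals and -0.04 by DESeq2 size factors. The log2 fold change of Rikenellaceae lay below that median under all 3 scalings, at -0.43, -0.66 and -1.03 with the median not subtracted. For the RC9 gut group, which held most of the family's counts, it was -0.04, -0.75 and -1.23 in the same order. The mean share of the RC9 gut group was 5.14% for the susceptible and 8.64% for the resistant group. The log2 fold change of Marinifilaceae, also with no median subtracted, changed sign, at 1.54, -0.33 and -0.61.

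**Figure D5:**
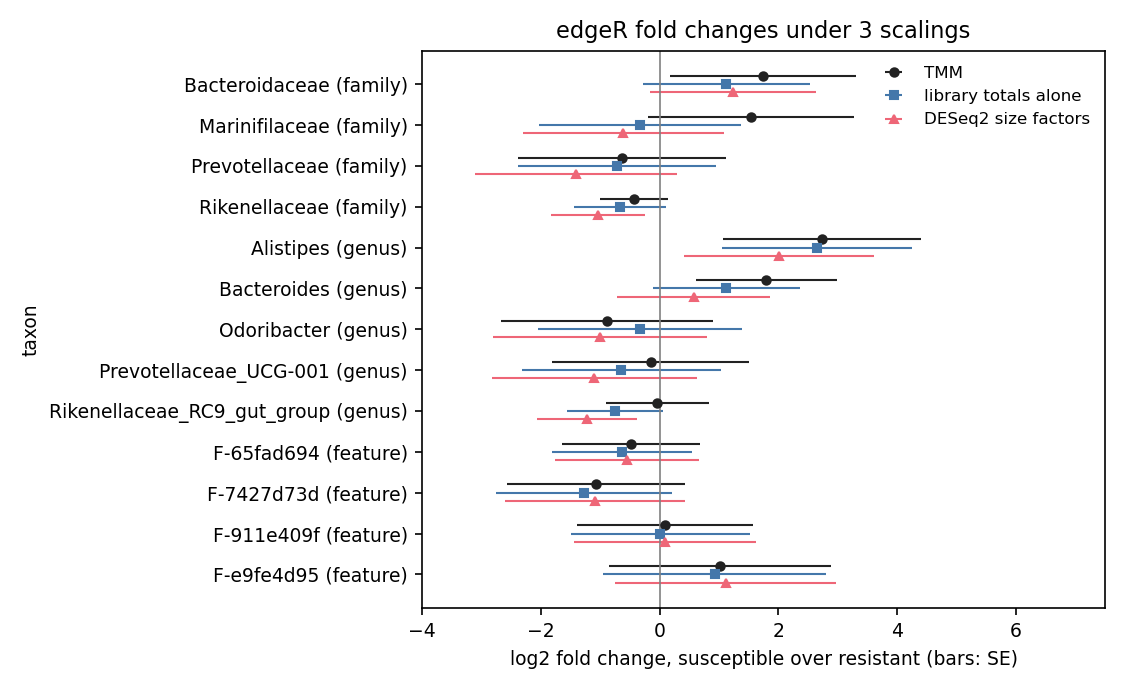
Log2 fold changes, susceptible over resistant, with SE (horizontal axis) from edgeR for the 4 families, 5 genera and 4 features tested, under 3 scalings of the libraries. No value passed the threshold, and the scaling moves Marinifilaceae from 1.54 with TMM to -0.61 with DESeq2 size factors.

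The share of Rikenellaceae was set beside the 2 most abundant families and beside the number that each sample's title carries, which the labels do not explain. Against Muribaculaceae, the other abundant Bacteroidota family, Pearson's r was -0.167 (permutation p = 0.535, adjusted p = 0.535) and Spearman's rho -0.0857 (permutation p = 0.735, adjusted p = 0.735) over 18 mice, and r was -0.178 without the 2 mice farthest from the median. Against Lachnospiraceae r was -0.187 (permutation p = 0.472, adjusted p = 0.535) and rho -0.288 (permutation p = 0.245, adjusted p = 0.327), and r was -0.107 without the 2 farthest mice. These shares are parts of one total. Against the title number r was -0.391 (permutation p = 0.105, adjusted p = 0.261) and rho -0.416 (permutation p = 0.0867, adjusted p = 0.298), and r was -0.375 without the 2 farthest mice. Within the 12 resistant mice r was -0.566 (permutation p = 0.0396, adjusted p = 0.158) and rho -0.706 (permutation p = 0.0126, adjusted p = 0.0504), and within the 6 susceptible mice r was 0.148 (exact permutation p = 0.789) and rho 0.371 (exact permutation p = 0.497). No relation passed after adjustment over the 4 examined. The effective number of Rikenellaceae features was the fourth. Over 17 mice its r against the title number was -0.382 (permutation p = 0.130, adjusted p = 0.261) and rho -0.365 (permutation p = 0.149, adjusted p = 0.298). Its r was -0.225 without the 2 farthest mice and -0.514 without the 2 libraries under 1500 counts (permutation p = 0.0518, adjusted p = 0.207). Since its values form separate clusters, the relation is also given within them. The clusters were split on the effective number itself, which narrows its range, so values within them cannot test the relation. Against the title number r was -0.560 (exact permutation p = 0.146) and rho -0.238 (exact permutation p = 0.582) in the 8 mice of the lower cluster. In the 9 mice of the upper cluster r was -0.264 (exact permutation p = 0.512) and rho -0.250 (exact permutation p = 0.521).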

How the data were processed

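Stool DNA of 18 mice was profiled by amplification of the V1 to V3 region of the 16S rRNA gene and paired sequencing on a MiSeq instrument, per the labels' protocols. The authors deposited a table of raw, whole-number counts of each feature in each mouse, and a table of taxonomic names. Read trimming, denoising, classifier and database are not given in the sources used here, and such steps can change how many rare features there are, how near-identical sequences are split and which names they carry. Groups come from the labels. Chi-square statistics of counts between same-group libraries (81 pairs) were at least 11.0 per degree of freedom, so none was counted as a repeat of another.

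Percentages are of each mouse's total. Families, genera and features with 10 or more counts in total and found in 4 or more mice were tested over the whole table with edgeR's quasi-likelihood test after TMM scaling (edgeR 4.0.16, limma 3.58.1, DESeq2 1.42.0, R 4.3.3). P-values were adjusted by the Benjamini-Hochberg method, with 0.05 as the threshold, and the SE of a fold change was derived from its F statistic. Unnamed genera were summed under the lowest named rank and genera called uncultured per family. Permutation tests ran over all 18564 splits of 18 mice (6188 for 17). The smallest possible p of these exact permutation tests was 5.39e-05 for 18 mice and 0.000162 for 17. Correlations used 100000 permutations, or all orders for 9 or fewer mice. Python 3.11.15, numpy 2.4.6, scipy 1.17.1 and pandas 2.3.3 were used. The count test was tested on simulated data with the same dispersion for every feature in a run, which need not hold for these rare members.

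The members and lists were chosen with earlier results of these data known. The text names every member family and genus, every feature found in 4 or more mice and the most abundant feature of each. Other features were named after their values were seen. Alternatives were DESeq2 size factors, library totals, the DESeq2 Wald test, limma on centred log-ratios (counts plus 0.5), other filters, the title number as a covariate and leaving out mice. The mouse genome was not used here.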

Additional observations from a re-analysis of the deposited data

Results flagged for a closer look

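Within the 6 susceptible mice, 6 of 18 values examined had 1 mouse far from the others (gap to the nearest mouse, as a share of the group's range, above the 95% limit for 6 samples). Chance flags about 1 in 20 groups, and a taxon found in 1 mouse of 6 meets the criterion whenever it is found, as 5 of the 6 were. Bacteroides in susceptible mouse 5 made up 11.1% of counts, against 3.99% in the next mouse. Prevotellaceae, and with them Prevotellaceae_UCG-001, made up 0.577% in susceptible mouse 4 and were not found in the other 5. Rikenella, and with it its feature F-1a26842e, made up 0.290% in susceptible mouse 1 and was not found in the other 5. The Odoribacter feature F-86031f4e made up 0.320% in susceptible mouse 4 and was not found in the other 5. The 12 resistant mice are too many for this criterion and were not examined.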

How the results depend on the processing

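Counts of calls over the whole table were 0 at every level and moved as follows. Families called were 1 with no filter, 1 with a filter of 2 mice and 1 with the title number as covariate. Genera called were 1 with limma, 1 with a filter of 2 mice and 1 with the title number. None of these was a member. Features called were 64 of 419 (15.3%) with no filter, 12 of 40 members among them, and 10 of 154 (6.49%) with a filter of 2 mice, 2 of 8 members among them. Of the 64 called with no filter 62 were higher in susceptible mice, as were all 10 called with the filter of 2 mice. With single mice left out, calls ran from 0 to 1 for families, for genera and for features. Presence gave 0 calls in every setting run.

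Directions changed, none past the threshold, in the following settings. Marinifilaceae took -0.61 with DESeq2 size factors, -0.33 with library totals, -0.65 with the DESeq2 test and -0.49 with no filter. Odoribacter took 0.99 with limma and 0.75 without the 2 libraries under 1500 counts. With the title number the RC9 gut group took 0.051 and F-e9fe4d95 -0.58. F-911e409f took -0.36 with a filter of 2 mice and -0.17 without the 2 libraries. With single mice left out, log2 fold changes that changed sign ran from -0.88 to 2.17 for Bacteroidaceae, -1.08 to 2.89 for Marinifilaceae, -0.24 to 2.46 for Bacteroides, -1.23 to 1.16 for Odoribacter, -1.75 to 0.21 for Prevotellaceae_UCG-001, -1.55 to 0.11 for the RC9 gut group, -0.40 to 0.50 for F-911e409f and -0.35 to 1.81 for F-e9fe4d95. The effective number difference ran from -0.0780 to 0.300, and the presence difference of F-e9fe4d95 from -5 to 15.2 percentage points. The cause was not tested.

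No paired analysis was possible because the replicate numbers follow accession order and the labels used pair no mice. At 673 to 3905 counts per mouse, shares near 0.1% rest on a few counts.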
